A study of Mus musculus with 10 samples.

Results

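A set of 10 regulators of late spermatogenesis was followed through mouse sperm and testes: Crem, Fhl5, Rfx2, Rfx3, Sox30, Mybl1, Tcfl5, Tbpl1, Sox5 and Spz1. They were chosen by symbol, as 10 of the 16082 genes with NM_ (known protein-coding) transcripts in the deposited tables, and all 10 were found. In a comparison averaged over treatment, added after the data had been seen, 3 of the 5 members tested were called, where 30.9% of all gene identifiers were. Tbpl1 was lower in sperm (0.198 ± 0.366 FPKM, SD, n = 6, against 3.14 ± 1.44, n = 4, in testes), as was Spz1 (1.63 ± 1.65 against 13.1 ± 4.98). Sox30 was higher (3.06 ± 3.43 against 0.58 ± 0.368), a call that rested on 1 control sperm pool and on single testis samples. Tbpl1 passed the filter on low values through the testes alone, and Sox30 through sperm. In controls by themselves Tbpl1 was called, 1 of 4 members tested, where 22.0% of all identifiers were. That call was kept in 8 of the 13 alternatives that tested it, and without either testis sample it could not be made. Tcfl5 was listed in all 10 samples at overlapping levels. Crem, Fhl5, Mybl1 and Sox5 left at most 2 counts in any sperm sample. None of the 4 members tested in each tissue was called for cadmium by edgeR (unadjusted p below 0.05 for 0 of 4), where 0.0225% of all identifiers were called in testes and 0.0824% in sperm.

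Round spermatids switch on a late programme of genes for the flagellum, the acrosome and the compaction of chromatin, after which transcription stops and the nucleus is packed with protamines. CREM is a cAMP-response factor that activates much of that programme, and FHL5 (also called ACT) is its LIM-domain coactivator in the testis. RFX2 and RFX3 are winged-helix factors that bind the X-box of genes for cilia and flagella. MYBL1 (A-MYB) governs meiotic genes and piRNA precursors in spermatocytes, TCFL5 and SPZ1 are helix-loop-helix factors of germ cells, SOX30 and SOX5 are HMG-box factors found in spermatids, and TBPL1 (TRF2) is a relative of the TATA-binding protein needed for spermiogenesis. Mature sperm do not transcribe, and their RNA is generally taken to be left from earlier stages or acquired in the epididymis.

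The samples came from mice labelled C57BL/6 and 3 to 5 months old. Control mice received saline and cadmium mice a single intraperitoneal injection of cadmium chloride at 3 mg/kg, and tissues were taken on day 35. RNA was sequenced from 4 control sperm, 2 cadmium sperm, 2 control testes and 2 cadmium testes samples. Sperm were collected from the cauda epididymis and vas deferens and treated with a buffer that lyses somatic cells, and the control sperm samples were pools of several animals. The files give FPKM (fragments scaled to transcript length and library size, a level per length) and expected counts, here summed over the NM_ transcripts of each gene. By the study's methods the control testes were taken from the mice that gave the control sperm, so the control tissues share animals. The labels do not pair a sperm sample with a testis sample or tie replicates further to single animals, the tissues were tested as unpaired, and the p-values below measure only the spread between these samples. In bulk samples, fewer cells of a type and less RNA per cell cannot be told apart.

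Depth differed between the tissues. Expected counts totalled 366455 to 1254477 in the 6 sperm samples and 2606086 to 2866856 in the 4 testes. NM_ genes took 9.14% to 13.6% of the counts. Control sperm replicate 1 was left out of the fits. With it included, the same members were called as below in each comparison. Of the sperm markers, Prm2 (protamine 2) reached 184 to 438 FPKM in the 6 sperm samples, Prm1 0 to 40.1, and Odf1, an outer dense fibre gene, was at 0 in all of them. The summed level of 6 spermatocyte markers was 0 in 5 sperm samples, 3.18 FPKM in cadmium sperm replicate 1, all of it Sycp3, and 3.88 to 7.75 in the testes. Spermatogonial markers summed to 0 in the control sperm pools, at most 1.73 in cadmium sperm and at most 1.54 in testes, and Sertoli markers to at most 7.27 in sperm and 3.96 in testes. Leydig cell markers summed to at most 27.5 FPKM in sperm and 22.2 in testes. Among them Star reached 27.5 in 1 control sperm pool, while Cyp11a1 and Insl3 were at 0 in all 6 sperm samples. The summed level of 4 leukocyte markers reached 13.1 in 1 cadmium sperm sample, against at most 4.69 in the control sperm pools and 3.84 in the testes. Epididymal markers summed to at most 3.08 in sperm and 10.7 in testes.

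The 5 regulators that passed the FPKM filter in at least 1 comparison are on 5 chromosomes (GRCm38.p6). Tcfl5 lies at chr2:180621956-180642691, Tbpl1 at chr10:22703877-22732666, Sox30 at chr11:45979069-46017992, Spz1 at chr13:92574631-92576232 and Rfx2 at chr17:56775897-56831008. The 250 bases upstream of the annotated start of those 5 genes are shown 5′ to 3′ on the gene's strand (RefSeq, GRCm38.p6). Whether these bases bear on the direction of change in sperm was not tested. The starts used for Tbpl1 and Sox30 lie inside the span of the gene. Capitals mark the motifs described after them.
Tcfl5, chr2:180642692-180642941 (-): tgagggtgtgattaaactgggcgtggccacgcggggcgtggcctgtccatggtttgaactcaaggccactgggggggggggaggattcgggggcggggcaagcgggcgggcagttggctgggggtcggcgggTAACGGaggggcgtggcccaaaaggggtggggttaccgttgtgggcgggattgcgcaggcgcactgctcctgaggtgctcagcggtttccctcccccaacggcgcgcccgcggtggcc
Spz1, chr13:92576233-92576482 (-): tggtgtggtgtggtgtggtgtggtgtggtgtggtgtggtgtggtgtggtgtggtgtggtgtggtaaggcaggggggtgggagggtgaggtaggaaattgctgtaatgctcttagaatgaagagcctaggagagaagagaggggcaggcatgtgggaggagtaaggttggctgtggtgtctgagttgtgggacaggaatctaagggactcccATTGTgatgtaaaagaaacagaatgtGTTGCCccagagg
Tbpl1, chr10:22731448-22731697 (-): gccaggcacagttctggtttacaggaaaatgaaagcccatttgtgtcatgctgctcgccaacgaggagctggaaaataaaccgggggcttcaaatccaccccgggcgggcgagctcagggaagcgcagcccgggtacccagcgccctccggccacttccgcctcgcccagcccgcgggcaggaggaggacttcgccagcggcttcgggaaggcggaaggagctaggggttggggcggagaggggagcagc
Rfx2, chr17:56831009-56831258 (-): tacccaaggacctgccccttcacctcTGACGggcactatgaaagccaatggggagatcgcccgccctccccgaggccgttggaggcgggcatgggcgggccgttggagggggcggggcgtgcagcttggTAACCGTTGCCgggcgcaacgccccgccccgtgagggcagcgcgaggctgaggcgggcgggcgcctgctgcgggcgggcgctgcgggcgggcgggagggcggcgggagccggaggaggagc
Sox30, chr11:45980060-45980309 (+): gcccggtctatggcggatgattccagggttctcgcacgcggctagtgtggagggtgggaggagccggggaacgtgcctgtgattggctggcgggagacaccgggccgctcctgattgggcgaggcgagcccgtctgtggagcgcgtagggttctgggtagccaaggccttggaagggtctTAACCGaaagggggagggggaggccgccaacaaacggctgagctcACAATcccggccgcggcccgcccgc

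Over 32851 such windows of 27025 genes the median GC content was 52.4%, with 6 CpG. The Spz1 window held no CpG at a GC content of 53.6%. The other 4 windows were rich in CpG: Tbpl1 had 19, Tcfl5 22, Sox30 23 and Rfx2 30, at a GC content of 65.6% to 76.0%.

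Short letter motifs were searched on both strands, with letters chosen after the windows had been seen. TGACGTCA, the full cAMP-response palindrome, was in none of the 9 windows of members (8 of the 10 genes had an entry, Fhl5 with 2) and in 1.55% of all windows. Its shorter form TGACG was in 1 member window (Rfx2, 224 bases upstream) and in 17.8% of all. GTTGCC, a part of the X-box, was in 3 member windows and 10.4% of all, among them Spz1 at 13 bases and Rfx2 at 116 bases upstream. TAACNG, the MYB letters, was in 4 member windows and 19.8% of all: Tcfl5 at 118 bases, Sox30 at 70, Rfx2 at 121, where it overlaps GTTGCC by 1 base, and Fhl5. ACAAT, the SOX letters, was in 4 member windows and 27.7% of all, including Sox30 at 25 bases and Spz1 at 39 on the opposite strand. CACGTG was in no member window and in 6.02% of all, and the Tbpl1 window held none of these motifs. These matches describe letters only.

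Each member was carried by 1 NM_ transcript in each sample that listed it. Tcfl5 (NM_178254), Spz1 (NM_030237), Tbpl1 (NM_011603), Sox30 (NM_173384), Fhl5 (NM_021318), Mybl1 (NM_001290397) and Rfx3 (NM_001166414) used the same transcript throughout. Rfx2 was NM_009056 in 9 samples and NM_027787 in control testes replicate 1. Sox5 was NM_011444 in control testes replicate 1 and cadmium testes replicate 2, and NM_001243163 in control testes replicate 2. Crem was NM_001110853 in both control testes and cadmium testes replicate 1, NM_001110859 in cadmium testes replicate 2 and NM_001110852 in cadmium sperm replicate 2. How the counting divided reads between isoforms of a gene is not given in the sources used here, and these assignments rest on few reads. The 5 scarce members lie at chr1:9667407-9700439 (Mybl1), chr4:25199907-25242852 (Fhl5), chr6:143828425-144782287 (Sox5), chr18:3266354-3337773 (Crem) and chr19:27761721-28014669 (Rfx3) of GRCm38.p6.

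The testes, which were sequenced deeper, listed more of the members. Control sperm replicates 1 to 4 listed 2, 5, 3 and 3 of the 10, cadmium sperm 5 and 7, control testes 10 and 10, and cadmium testes 9 and 9. Their summed FPKM was 11.23, 20.25, 11.02 and 19.16 in control sperm and 28.47 and 21.05 after cadmium. The control testes summed to 23.62 and 39.8, and those of cadmium mice to 28.22 and 39.05. Tcfl5 took 34.8% to 87.1% of it in sperm and 32.7% to 42.5% in testes, ranges that overlapped. Spz1 took 34.4% to 48.6% in testes and at most 19.7% in sperm. These shares were not tested.

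**Figure D1:**
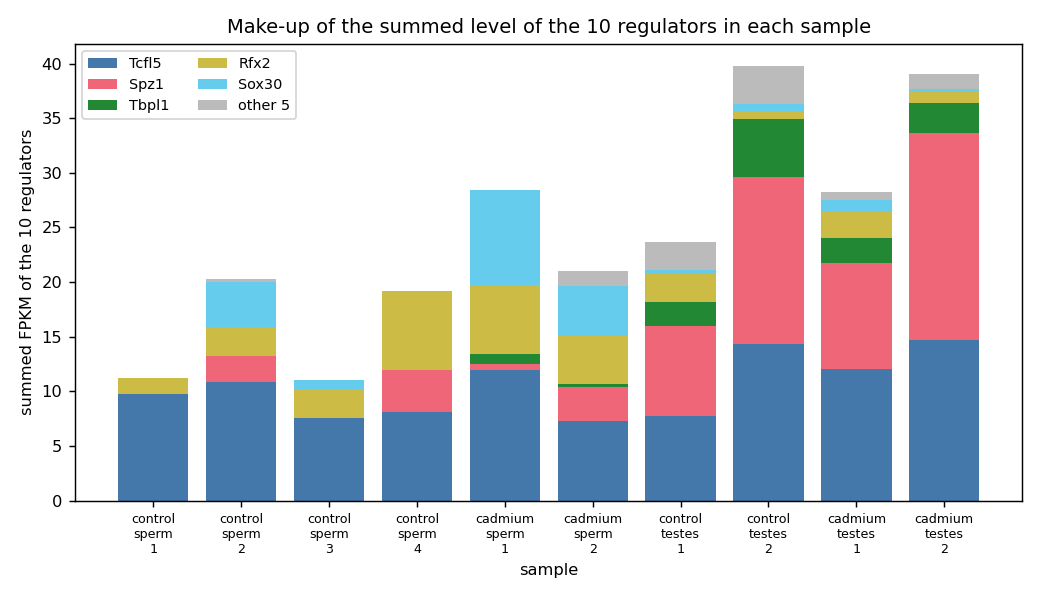
Stacked bars give the summed FPKM of the 10 regulators in each of the 10 samples (y axis, FPKM), divided by gene, with the 5 least abundant joined as other 5. Tcfl5 and Spz1 fill most of each testis bar, and Tcfl5, Rfx2 and Sox30 together most of each sperm bar.

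Tcfl5 was found in every sample of both tissues. Its level was 9.78, 10.84, 7.57 and 8.14 FPKM in control sperm and 11.91 and 7.32 after cadmium. The control testes had 7.72 and 14.36, and the cadmium testes 12 and 14.66. The 2 tissues overlapped, with means of 9.26 ± 1.88 (SD, n = 6) in sperm and 12.2 ± 3.21 (SD, n = 4) in testes. Among the NM_ genes listed in a sample, Tcfl5 stood at percentiles 92.3 to 95.9 in testes and 47.0 to 92.2 in sperm, on 6 to 30 counts per sperm sample and 48 to 86 per testis sample.

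Spz1 was as abundant as Tcfl5 in testes and far below it in sperm. It was at 0, 2.41, 0 and 3.77 FPKM in control sperm and 0.55 and 3.05 after cadmium. The control testes had 8.27 and 15.3, and the cadmium testes 9.7 and 18.98. All 4 testes lay above all 6 sperm samples, with means of 13.1 ± 4.98 (SD, n = 4) and 1.63 ± 1.65 (SD, n = 6). Spz1 exceeded Tcfl5 in 3 of the 4 testes, so the order of these 2 was within their spread there, and was below it in 6 of 6 sperm samples.

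Tbpl1 was at 0 in all 4 control sperm pools, at 0.91 and 0.28 FPKM in cadmium sperm (3 counts and 1). The control testes had 2.21 and 5.27, and the cadmium testes 2.35 and 2.73. The tissues did not overlap. Over the 6 sperm samples 4 counts made 0.839 CPM, the count scaled to the library totals (exact 95% Poisson interval 0.229 to 2.15), against 8.80 (7.13 to 10.7) over the 4 testes from 97 counts. Such intervals cover counting error only, and whether reads were collapsed to molecules is not given in the sources used here.

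Sox30 and Rfx2 went the other way. Sox30 was at 0, 4.13, 0.92 and 0 FPKM in control sperm and at 8.73 and 4.56 in cadmium sperm, whereas the control testes had 0.35 and 0.65 and the cadmium testes 1.07 and 0.25. Both cadmium sperm samples and 1 control pool stood above every testis sample, and 2 control pools had none. Rfx2 was 1.45, 2.61, 2.53 and 7.25 FPKM in control sperm and 6.37 and 4.41 after cadmium. The control testes had 2.52 and 0.71, and the cadmium testes 2.38 and 1.02. Rfx2 was one of the 2 members found in all 10 samples, and its tissues overlapped through control sperm replicate 1, which lay below 2 of the testes. Means were 3.06 ± 3.43 (SD, n = 6) in sperm and 0.58 ± 0.368 (SD, n = 4) in testes for Sox30, and 4.10 ± 2.32 and 1.66 ± 0.926 for Rfx2.

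The CREM pair and the remaining factors were scarce everywhere. Crem was at 0.79 and 0.69 FPKM in control testes and at 0.16 and 0.48 in those of cadmium mice, from 1 to 5 counts each, and in sperm at 1.13 in cadmium replicate 2 (2 counts) and 0 in the other 5 samples. Its coactivator Fhl5 was at 0.99 and 0.73 in control testes, 0.33 and 0 in cadmium testes and 0 in every sperm sample. Mybl1 was at 0.15 and 0.69 in control testes, 0.07 and 0.19 in cadmium testes and 0 in sperm. Sox5 was at 0.39 and 1.19 in control testes, 0 and 0.58 in cadmium testes and 0 in sperm. Rfx3 was at 0.23 and 0.21 in control testes, 0.16 in both cadmium testes, and 0.26 in control sperm replicate 2 and 0.3 in cadmium sperm replicate 2, with 0 in the other 4. Both control testes lay above both cadmium testes for Crem, Fhl5 and Rfx3, on 9 against 4 counts for Crem and 5 against 1 for Fhl5. With no filter, edgeR did not call Crem (log2 fold change -1.01 ± 1.14, unadjusted p = 0.375), Fhl5 (-2.03 ± 1.79, 0.257) or Rfx3 (-0.37 ± 0.96, 0.699), each at an adjusted p of 1.00.

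**Figure D2:**
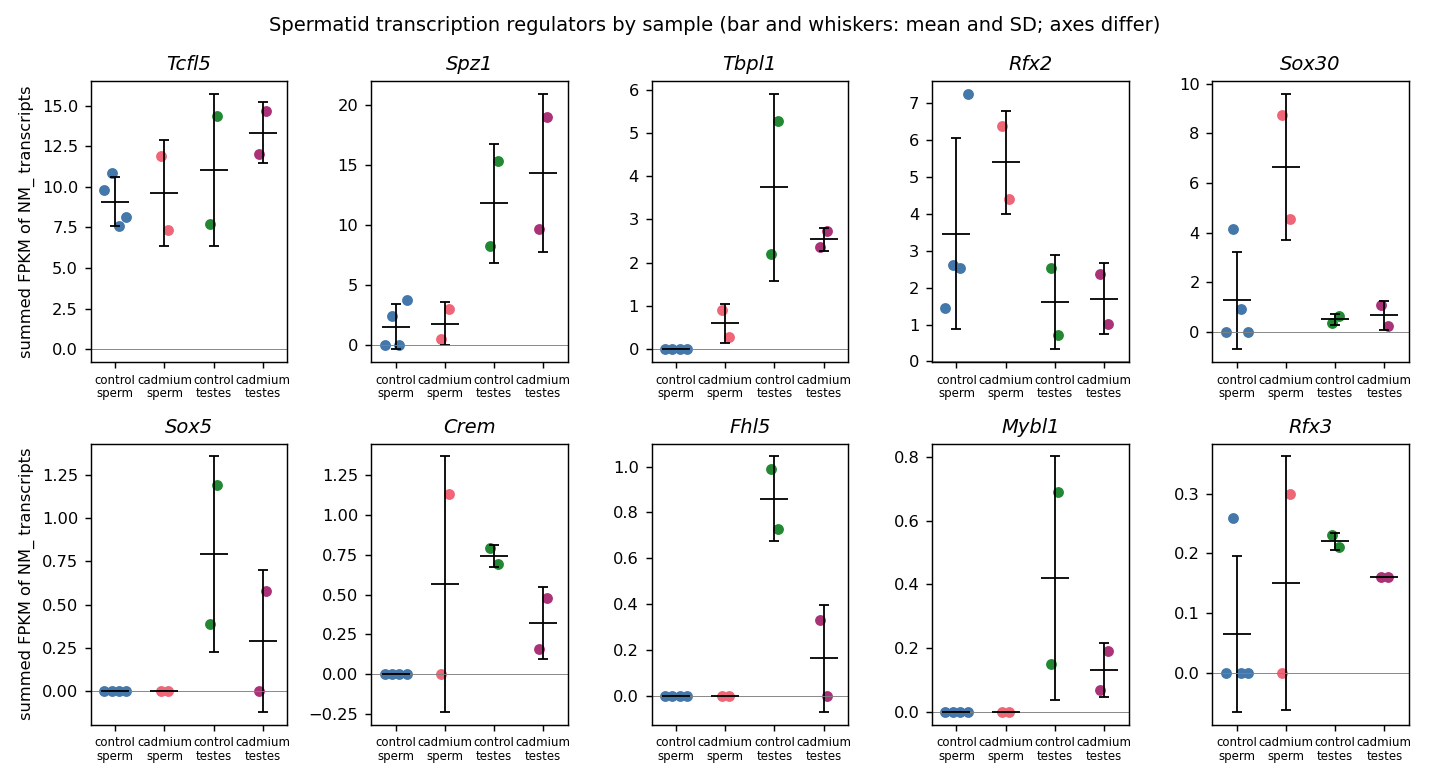
Each panel shows the summed FPKM of a member (y axis, scales differ between panels) in the 4 groups (x axis), with a point per sample and the group mean with its SD. For Tbpl1 and Spz1 the 4 testis points lie above the 6 sperm points, for Tcfl5 they overlap, and the 2 cadmium sperm points of Sox30 lie above all 4 testis points.

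The zeros have to be read against depth. A count of 0 over the 6 sperm samples was given a limit of 0.629 CPM (3 counts of their total). The limit covers counting error only, and replicate samples varied by more than counting error. Sox5 stood at 3.78 CPM in testes (exact 95% Poisson interval 2.74 to 5.15), 6.00-fold above that limit, a ratio that takes the testis level as exact. The ratio fell to 3.71-fold without control testes replicate 2, which held 22 of its 41.66 testis counts. The exact interval for its 0 sperm counts ended at 0.774, below the testis interval. Within controls the ratio was 4.34-fold and within cadmium mice 1.65-fold. Mybl1 gave 1.27 CPM in testes (exact 95% Poisson interval 0.694 to 2.13) and 0 in sperm (upper end 0.774), and these intervals overlapped. Fhl5, at 0.544 in testes, lay under that limit, so that a difference between tissues was not detectable at this depth. Crem gave 0.420 CPM in sperm (0.0508 to 1.52) and 1.18 (0.628 to 2.02) in testes, and Rfx3 1.25 (0.462 to 2.74) and 1.74 (1.04 to 2.69), both with overlapping intervals.

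**Figure D3:**
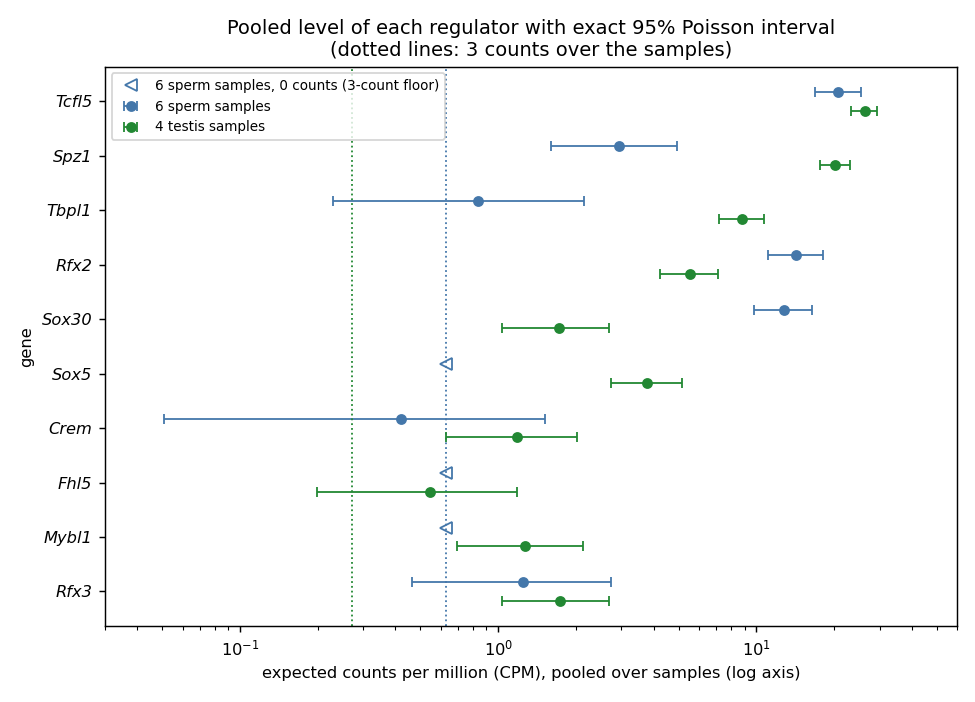
Pooled expected counts scaled to library size (CPM) (x axis, log scale) are shown for each gene (y axis) over the 6 sperm and the 4 testis samples, with exact 95% Poisson intervals that cover counting error only. Triangles mark genes with 0 counts in sperm, drawn at the 3-count limit of 0.629. Among genes with counts in both tissues the intervals are apart for Spz1, Tbpl1, Rfx2 and Sox30.

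Sperm were compared with testes by edgeR's quasi-likelihood test over all gene identifiers with at least 1 FPKM in at least 2 samples, with Benjamini-Hochberg adjustment over all of them, calling a gene at an adjusted p below 0.05 and a change over 2-fold. In controls 4 members passed the filter and 1 was called, when 22.0% of the 24432 identifiers tested were called (4.19% higher, 17.8% lower). That member was Tbpl1, lower in sperm (log2 fold change -7.14 ± 2.48 SE, adjusted p = 0.0465 by edgeR). It passed the filter through the testes alone. With all 3 sperm pools of the fit at 0 the fitted size is no bound. The testis level, taken as exact, stood 6.71-fold above the 3-count limit of those pools. This ratio was 4.04-fold without control testes replicate 2 and 3.04-fold without control sperm replicate 2. The call ended without control sperm replicate 2 (adjusted p = 0.0767 by edgeR) or replicate 4 (0.165) and without the filter (0.0845). It also ended with library totals in place of TMM factors (0.0502) and with the replicate block. It could not be made without either testis sample, when Tbpl1 no longer passed the filter. Spz1 (-2.62 ± 1.45, adjusted p = 0.184), Rfx2 (1.18 ± 1.46, 0.589) and Tcfl5 (-0.56 ± 1.11, 0.753) did not pass by edgeR. The median over all identifiers tested was -1.24.

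In cadmium-treated mice 5 members were tested and 3 were called, against 31.7% of 25780 identifiers (16.3% higher, 15.4% lower, median -0.29). Sox30 was higher in sperm by 3.55 ± 0.76 on the log2 scale (adjusted p = 3.28e-05) and Rfx2 by 1.93 ± 0.67 (0.0174), while Spz1 was lower (-2.73 ± 0.75, adjusted p = 0.00193 by edgeR). Tbpl1 (-1.88 ± 0.99, adjusted p = 0.135) and Tcfl5 (-0.28 ± 0.57, 0.748) were not called by edgeR. Sox30 passed the filter through its 2 sperm samples, since only 1 testis sample reached 1 FPKM. Spz1 passed it through its 2 testis samples, since only 1 sperm sample reached that level. The Rfx2 call was kept in 3 of 12 alternatives and was lost without cadmium sperm replicate 1 or either cadmium testis sample (adjusted p = 0.0730, 0.140 and 0.247). The Spz1 call was lost without cadmium sperm replicate 1 (0.0980) or cadmium testes replicate 1 (0.0641) or 2 (0.185), and the Sox30 call without cadmium testes replicate 1 (0.0515). None of these calls was kept in a model of all 4 groups, where adjusted p was 0.304 for Rfx2, 0.0522 for Sox30 and 0.0530 for Spz1.

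Averaged over treatment, a comparison added after the data had been seen, sperm and testes differed at 3 of the 5 members tested. Of the 32814 identifiers tested, 30.9% were called (11.6% higher, 19.3% lower, median -0.96). Tbpl1 was lower in sperm (-4.65 ± 1.31, adjusted p = 0.00284 by edgeR) and was called under all 17 alternatives run for it. It again passed the filter through the testes alone, since no sperm sample exceeded 0.91 FPKM, and with control sperm at 0 its fitted size is no bound. Spz1 was lower (-2.57 ± 0.80, adjusted p = 0.00711 by edgeR) and was called in 13 of 17 alternatives, losing the call by limma on log2(FPKM + 0.1) and without control testes replicate 2 (0.0989), cadmium sperm replicate 1 (0.0790) or cadmium testes replicate 2 (0.0899). Sox30 was higher (2.79 ± 0.85, adjusted p = 0.00615 by edgeR) and was called in 12 of 17, with both limma fits among those that lost it. It passed the filter through its sperm samples, since cadmium testes replicate 1 (1.07 FPKM) was the only testis sample to reach 1 FPKM. Without control sperm replicate 2, the pool with the most Sox30, its log2 fold change was 1.29 and its adjusted p 0.390, and the call also ended without control testes replicate 1 (0.0978) or cadmium testes replicate 2 (0.138). Rfx2 (1.66 ± 0.75, adjusted p = 0.0762) and Tcfl5 (-0.32 ± 0.64, 0.724) were not called by edgeR, though Rfx2 passed without control sperm replicate 3 (1.86, 0.00600).

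With no filter on FPKM all 10 members were tested, and 14.3% of 68976 identifiers were called in the averaged comparison. Sox5 was then called as well (adjusted p = 0.00500 by edgeR), with its sperm samples all at 0. Crem (adjusted p = 0.375), Fhl5 (0.521), Mybl1 (0.109) and Rfx3 (1.00) were not called by edgeR in that fit. The spermatocyte markers, 0 in 5 of 6 sperm samples, moved with the lower level of Tbpl1, Spz1 and Sox5 in sperm. Their median log2 fold change in that fit was -3.27, against -1.02 over all identifiers. Elongating spermatid markers (-3.06), Leydig (-2.33), Sertoli (-1.75) and epididymal markers (-1.64) were also below that median. Spermatogonial (-0.30) and leukocyte markers (0.76) were above it. The part of these cell types in the results was not tested.

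**Figure D4:**
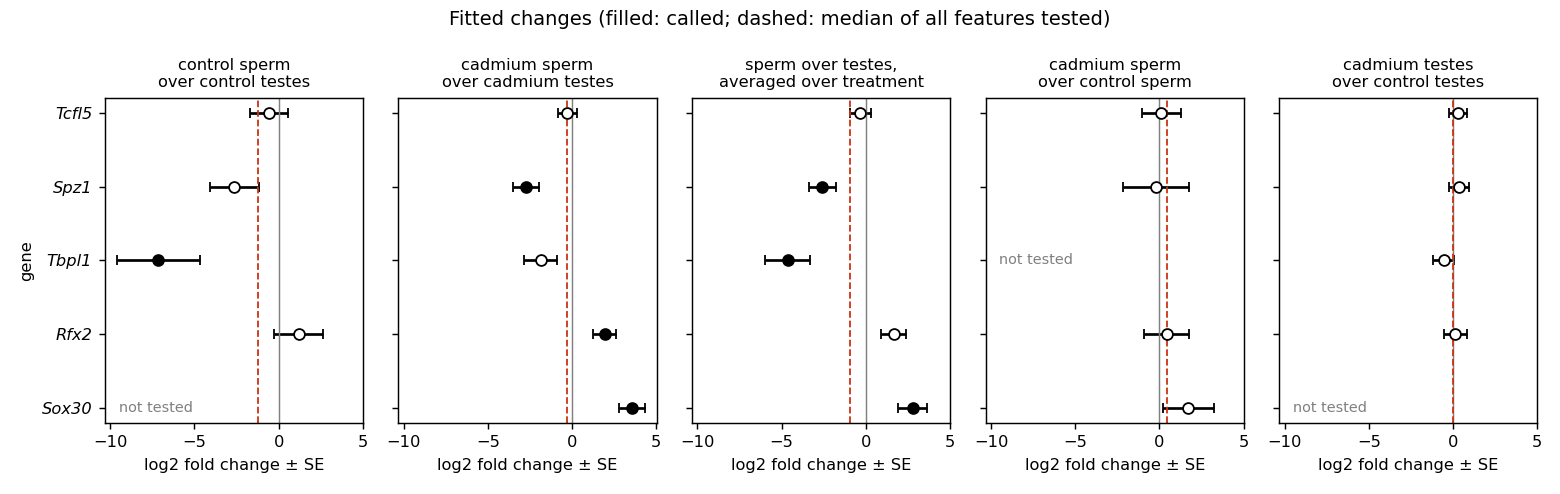
Points give the fitted log2 fold change of 5 regulators (y axis) with its SE (x axis) in 5 comparisons, filled where called. The dashed line is the median of all identifiers tested. Sox30 and Rfx2 lie to the right of that median and Tbpl1 and Spz1 to its left in each sperm against testis panel that tested them, and no point is filled in the 2 cadmium panels.

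Cadmium was tested within each tissue, to ask whether the exposure altered these transcripts 35 days later. In testes 4 members passed the filter and none was called by edgeR or had an unadjusted p below 0.05, when 0.0225% of 26724 identifiers were called (6, with 226 at an unadjusted p below 0.05). The log2 fold changes of cadmium over control testes were 0.14 ± 0.68 for Rfx2, 0.31 ± 0.54 for Tcfl5, -0.54 ± 0.63 for Tbpl1 and 0.35 ± 0.58 for Spz1, each with an adjusted p of 1.00 by edgeR. Their signs were not steady: leaving out 1 testis sample turned each of the 4 at least once. DESeq2 and both limma fits called no member either.

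In sperm 4 members passed and none was called by edgeR or had an unadjusted p below 0.05, when 0.0824% of 20640 identifiers were called (17, with 1354 at an unadjusted p below 0.05), and DESeq2 and limma called none of them. Sox30 had a log2 fold change of 1.72 ± 1.51, Rfx2 0.44 ± 1.34, Tcfl5 0.12 ± 1.17 and Spz1 -0.17 ± 1.96, around a median of 0.43 over all identifiers. With DESeq2's size factors that median was 0.31. Both cadmium sperm samples had more Sox30 than any control pool, and both had Tbpl1, which no control pool had. Both were also deeper than every control pool, and the part of depth in this was not tested. When the response to cadmium was set against that of the other tissue, none of the 5 members tested was called by edgeR or had an unadjusted p below 0.05, when 0.0396% of 32814 identifiers were called (13, with 1236 at an unadjusted p below 0.05).

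The members were set beside genes that act with them or resemble them, with counts to be read against the 19.3% of all identifiers called lower and the 11.6% called higher in the averaged comparison. Of 15 relatives by family, 4 were tested in the averaged comparison, 3 were lower in sperm and none was higher. Their median log2 fold change was -3.14 against -0.96 over all identifiers. The 3 were Fhl4, a LIM-only relative of Fhl5 (0 FPKM in 6 sperm samples, 3.56 ± 1.60 in 4 testes), Rfx1 and Rfx5, a factor of MHC class II genes (1.07 ± 1.17 and 9.44 ± 2.29, adjusted p = 0.00201 by edgeR). Fhl4, at 0 in sperm, passed the filter through the testes alone and so could only come out lower. Rfx1 also did not pass it in sperm by themselves and was tested through the testes. The difference between Rfx2 and these relatives was not tested. In cadmium-treated mice Rfx7 was also called, higher in sperm (2.40 ± 0.82, adjusted p = 0.0145 by edgeR). Rfx7 did not pass the filter in the testes by themselves and needed its sperm samples to be tested.

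Of 8 partners and testis forms of the general transcription machinery, 4 were tested and 2 were lower in sperm, at a list median of -1.66. These were Brdt, a chromatin reader of spermatocytes and spermatids (0.19 ± 0.249 FPKM in 6 sperm samples, 2.69 ± 0.747 in 4 testes), and Gtf2a1l, the germ cell TFIIA subunit (0 and 1.73 ± 1.65). Gtf2a1l passed the filter through the testes alone and so could only come out lower. Brdt also did not pass it in sperm by themselves and was tested through the testes. Kif17, the kinesin known to carry FHL5 in spermatids, was at 0.848 ± 0.527 in sperm and 1.27 ± 0.324 in testes and was not called. Among 11 other germ cell factors 2 were tested and 1 was higher: Sohlh1, a helix-loop-helix factor of spermatogonia (6.70 ± 5.92 in sperm, 0.81 ± 0.454 in testes, adjusted p = 0.00981 by edgeR). Sohlh1 did not pass the filter in the testes by themselves and was tested through its sperm samples. Ctcfl (BORIS), the other, was at 15.8 ± 5.10 and 11.8 ± 3.30 and was not called.

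Of 12 spermatid genes known as targets, 11 were tested, 6 were lower in sperm and none higher (19.3% and 11.6% over all identifiers), at a list median of -2.53 against -0.96. Tnp1, a transition protein that precedes the protamines, was at 2.60 ± 2.90 FPKM in 6 sperm samples and 106 ± 24.0 in 4 testes (-4.61 ± 0.85, adjusted p = 1.78e-06 by edgeR). Prm1 was at 16.7 ± 14.5 and 126 ± 7.70 (-3.32 ± 0.75, 0.000133), and Tnp2, Akap4, Ldhc and Pgk2 were the other 4. Akap4 and Pgk2 did not pass the filter in sperm by themselves and were tested through the testes. Prm2 was at 307 ± 103 in sperm and 211 ± 63.4 in testes and was not called. Of 8 piRNA pathway genes known as MYBL1 targets, 4 were tested, Mael and Ddx4 were lower and Mov10l1, the piRNA helicase, was higher in sperm (2.53 ± 0.80, adjusted p = 0.00810 by edgeR). Mael, at 0 in all 6 sperm samples, passed the filter through the testes alone and so could only come out lower. Ddx4 did not pass it in sperm by themselves and needed the testes. Mov10l1 did not pass it in the testes by themselves and needed its sperm samples. In the cadmium comparisons no gene of these lists was called by edgeR in either tissue, and 1, Odf1 in testes, had an unadjusted p below 0.05.

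The NM_ genes whose pattern over the 10 samples lay nearest to a member were found by the root mean square difference of centred log2(FPKM + 1) values among 6684 genes, for the 3 most abundant members in testes. For Spz1 they were Rgcc (0.296), Trnt1 (0.354) and Slc25a25 (0.409). For Tcfl5 they were Ppme1 (0.204), Yod1 (0.235) and Zc3h10 (0.249). Their mean levels in 6 sperm samples and 4 testes were 0.128 and 0.835 FPKM for Ppme1, 4.04 and 6.19 for Yod1 and 38.9 and 41.7 for Zc3h10. The mean of Ppme1 was below the pseudocount of 1 in both tissues, which compresses its differences on this scale. For Tbpl1 they were Nox3 (0.131), Qrich2 (0.160) and Arpc5l (0.185), in log2 units. None of the nearest genes was another member. All the values share the same libraries and depths.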

How the data were processed

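Strand-specific paired-end libraries depleted of ribosomal RNA were sequenced on an Illumina instrument. The authors aligned the reads (HISAT and mm10 per the submitters' processing notes, SOAP2 in the study's methods) and deposited, for each of 10 samples, an expected count and an FPKM per transcript above 0. The tool behind the expected counts is not given in the sources used here. The deposited expected counts were not whole in 29.3% to 40.3% of values.

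NM_ transcripts were summed by gene, and the other classes by their gene identifiers. Summed expected counts, rounded, were tested with edgeR 4.0.16 (R 4.3.3, TMM factors, quasi-likelihood) after a filter of FPKM of at least 1 in at least 2 samples, with Benjamini-Hochberg adjustment over all identifiers. SE was worked back from the test. Alternatives were DESeq2 1.42.0, limma 3.58.1 on log2(FPKM + 1) and log2(FPKM + 0.1), no filter, NM_ genes only, library totals without TMM, a 4-group model, all control sperm pools, each sample left out, and a replicate block. Fold limits for members at 0 in sperm were also computed without each sample, a choice made after the data were seen. Scripts were tested on simulated data. Control sperm replicate 1 was left out as in the study. Libraries were compared for duplicates and none was found.

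Depth limits precision: 3 counts, the limit taken here for a count of 0, were 0.000105% to 0.000819% of a sample's total. The genes named are all 10 members, the listed pathway genes that were called or that act directly with a member, and the 3 nearest patterns of the 3 most abundant members in testes. Members and gene lists were chosen with earlier results of these data known. Promoter windows came from RefSeq (GRCm38.p6). No protein sequence was used here.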

Additional observations from a re-analysis of the deposited data

Results flagged for a closer look

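Rfx3 in control sperm stood out because 1 pool lay far from the others: replicate 2 had 0.26 FPKM (2.55 expected counts) and the other 3 pools had 0. This was 1 of 6 groups of values with 4 samples that could be examined so. With the other 3 pools at 0 the rule flags any value above 0, so its chance rate of about 1 in 20 does not apply. Replicate 2 was also the deepest control pool, with 1058017 expected counts against 366455 to 508252, and the part of depth was not tested.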

How the results depend on the processing

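Counts over all identifiers moved more than the members' directions. DESeq2 called 3315 of the identifiers in control sperm against control testes (1134 higher, 2181 lower, where edgeR had 1024 and 4349), 5089 in the cadmium sperm against testes comparison, 11 for cadmium in sperm and 0 for the difference of the cadmium effect. limma on log2(FPKM + 1) called 0 in each cadmium comparison and 0 for the difference, and with a pseudocount of 0.1 it called 0 for cadmium in testes, 1168 for cadmium in sperm and 0 for the difference. With no filter, 1344 were called in controls and 88 for cadmium in testes. With NM_ genes only, 1312 of 4910 tested were called in controls, 0 for cadmium in testes, 3 for cadmium in sperm and 0 for the difference. That setting called 2351 of 5080 in the cadmium sperm against testes comparison and 2933 of 6609 in the averaged comparison. With library totals, added after the data were seen, 2734 were called in controls (1065 higher, 1669 lower), 0 for cadmium in testes and 3 for the difference, and the median over all identifiers moved from -0.29 to -0.55 in the cadmium sperm against testes comparison. The 4-group model called 3 for cadmium in testes and 4272 in the cadmium sperm against testes comparison with 9 samples, and 4 for cadmium in sperm with 10. Of the members, Tbpl1 was lost in controls (0 called lower) with no filter and with library totals. In cadmium sperm against testes 1 member instead of 2 was called higher with DESeq2, limma on log2(FPKM + 1), no filter or library totals, and 0 with a pseudocount of 0.1 or the 4-group model, both of which also called 0 lower. In the averaged comparison limma called 0 higher under both pseudocounts and, with 0.1, 1 lower. The cause of these changes was not tested.

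Leaving out a sample gave 880 to 4335 calls in controls, 4 to 29 and 7 to 42 for cadmium in testes and sperm, 1619 to 5255 in cadmium sperm against testes, 0 to 26 for the difference and 6201 to 11021 in the averaged comparison. An arm left with 1 sample was assumed to vary like the others. Members called then ranged from 0 to 1 lower in controls, 0 to 2 higher and 0 to 1 lower in cadmium sperm against testes, and 0 to 2 higher and 1 to 2 lower in the averaged comparison. Values that turned sign when a sample was left out belonged to no call. For cadmium in testes Rfx2 ran from -0.43 to 1.09, Tcfl5 from -0.22 to 1.08, Tbpl1 from -1.17 to 0.49 and Spz1 from -0.45 to 1.12. For cadmium in sperm Tcfl5 ran from -0.17 to 0.47 and Spz1 from -1.89 to 0.58. Tcfl5 ran from -0.75 to 0.015 in cadmium sperm against testes and from -0.73 to 0.12 in the averaged comparison. For the difference Rfx2 ran from -0.59 to 0.80, Tcfl5 from -1.12 to 0.62 and Spz1 from -2.08 to 0.52. Other settings also turned values for cadmium in sperm, with Tcfl5 at -0.052 by DESeq2 and Spz1 at 0.53 by limma with 0.1, 0.13 in the 4-group model of 10 samples and 0.21 with all 4 control pools. For the difference Tcfl5 was 0.15 with no filter and Spz1 0.26 by limma with 0.1.

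Samples share replicate numbers only, and deviations of same-numbered samples correlated at 0.446 between the testes groups, -0.0348 between the sperm groups, -0.0441 between control sperm and testes and 0.0910 between cadmium sperm and testes. With the replicate block 1404 identifiers were called in controls, where 0 members were called lower, 89 for cadmium in testes and 25 for the difference, and with the block Tcfl5 turned to 0.078 in controls and -0.10 for cadmium in sperm, and Spz1 to 0.72 there. The block changed no other call of a member. Of the results on single members, 330 values kept their direction and their side of the threshold, 31 lost a call, 1 gained it and 32 turned sign.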
